A study of Mus musculus with 12 samples.

Results

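Klf4, Myc and Zfp281 encode transcription factors of pluripotent cells, and their mRNAs carried 18 of the 31760 rows in 4 lists of N6-methyladenosine (m6A) peaks. These 3 genes, of 6074 named genes with a peak, were chosen by name, from earlier results of these data in which their peaks stayed or were higher after knockdown of the m6A writers. The differences between knockdown and scramble given here are therefore a description, with no test. The cells were J1 mouse embryonic stem cells, grown with leukemia inhibitory factor (LIF) on irradiated mouse embryonic fibroblasts and selected with puromycin after lentiviral infection. The hairpin RNA they carried was scramble, directed at Mettl14 or directed at Mettl3, with 2 immunoprecipitated libraries for each. Expression is not in the tables, and the knockdowns were not checked here. Fragmented poly(A) RNA was pulled down with an anti-m6A antibody.

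Mettl3 is the catalytic subunit and Mettl14 the RNA-binding partner of the complex that methylates adenosines in mRNA, mostly within short words around an AC core. The mark is known to be dense near stop codons and in long exons, and reader proteins bound to it can shorten the life of an mRNA. Klf4 is a zinc finger factor of the LIF-responsive circuit of naive stem cells and a reprogramming factor. Myc is a helix-loop-helix factor that binds DNA with its partner Max and drives growth and self-renewal. Zfp281 is a zinc finger factor of GC-rich promoters that binds core pluripotency factors and takes part in the exit from the naive state.

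The rows of the 3 genes formed 5 separate peaks. The sequences under them are shown because they give the methylation words there. For all but the Klf4 3' UTR peak they also give the place where the antibody signal was highest. Positions count from 1 and distances to a stop codon are to its first base, along the mRNA. Each window is 101 nt of coding sequence (GENCODE M21 transcripts, GRCm38, the build also called mm10), centred on the peak summit of the Mettl14 knockdown library of set 1, except for the Klf4 3' UTR peak, where a 30 nt site is shown. That site holds the GGACT of the peak, and the listed summits, 55527831 and 55527780, lie outside it. Capitals mark the 18 five-base words of the m6A consensus DRACH, in which the first base is A, G or T, the second is A or G, then come A and C, and the last is A, C or T.
Klf4 exon 3 peak, chr4:55530126-55530226, minus strand: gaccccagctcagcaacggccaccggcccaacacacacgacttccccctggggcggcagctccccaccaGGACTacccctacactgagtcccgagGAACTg
Klf4 3' UTR peak, chr4:55527800-55527829, minus strand: ccaaatccaacttGAACAtgcccGGACTta
Myc exon 3 peak, chr15:61989709-61989809, plus strand: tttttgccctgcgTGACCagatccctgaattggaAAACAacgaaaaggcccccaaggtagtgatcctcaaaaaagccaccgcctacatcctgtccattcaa
Zfp281 long peak, chr1:136626190-136626290, plus strand: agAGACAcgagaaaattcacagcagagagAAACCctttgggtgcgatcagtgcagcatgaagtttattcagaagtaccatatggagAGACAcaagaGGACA
Zfp281 peak near the stop codon, chr1:136627739-136627839, plus strand: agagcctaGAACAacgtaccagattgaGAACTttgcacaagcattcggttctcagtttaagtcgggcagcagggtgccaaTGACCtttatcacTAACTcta

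Of the 4 windows of 101 nt, only that of Klf4 exon 3 held GGACT, a well known m6A word, for the summits of the library used. Windows centred on the Mettl3 summits of Myc in set 1 and of the long Zfp281 peak in set 2 would hold it as well, 7 and 40 nt from those summits. In Klf4 its A lay at chr4 position 55530155, 21 nt downstream of the summit, and a further GGACT lay 64 nt downstream. In Myc the GGACT words of the peak lay at -218, 82 and 283 nt from the summit used (negative, upstream). In the long Zfp281 peak they lay at -351 and 105 nt, and in the Zfp281 peak near the stop codon the single GGACT lay 77 nt downstream. Over all Mettl14 knockdown peaks of set 1 whose summit lay on a transcript, 25.7% of 4428 such windows held GGACT, against 10.7% of 154868 windows tiled over the same transcripts. A DRACH word was in 94.1% and 85.8% of them, so its presence in all 4 windows was common to most windows of these transcripts. Words were counted on the transcript strand, and GGACT is itself a DRACH word.

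The tables fall into set 1 and set 2, which share no library, and within a set both knockdowns are compared with the same scramble library. The scramble lists held 7886 and 5438 peaks and the knockdown lists 4367 to 5717. The median knockdown peak held 55 to 72 tags; the depth of each library was not known, as the tables give no read totals. The median log2 change of shared peaks, those listed in both libraries of a table, was -0.06 and -0.59 after Mettl14 knockdown and 0.22 and -0.91 after that of Mettl3 (set 1 and set 2). Enrichments, tags and widths are the values of the authors' peak caller. Of the fixed markers, 2 of 8 for stem cells (Sox2 and Esrrb) and 3 of 12 for feeder fibroblasts (Thy1, Pdgfrb and Twist1) had a listed peak. A listed peak is no expression level, so the cell type was not checked. Of the 12 feeder markers, 2 and 2 had a peak in the scramble libraries, 2 and 1 in the Mettl14 knockdown and 1 and 0 in the Mettl3 knockdown libraries, and the other 9 had none. The feeder cells are mouse cells as well, and their part in the values of the 3 genes was not tested. In such bulk RNA, fewer cells of a type and less RNA per cell cannot be told apart.

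In Klf4 the main peak lay in exon 3, which encodes most of the protein. In both scramble libraries it was called over the same stretch, chr4:55530049-55531082 on the minus strand, 1034 nt wide. The knockdown calls covered 95% to 99.9% of that width, so the enrichments below compare nearly the same region. Coding sequence made up 90.4% to 95.1% of each call, and the remaining 48 to 99 nt lay in the intron upstream of exon 3. The summits of 3 knockdown libraries fell on the same nucleotide, 55530176, and the fourth was 3 nt away, 516 to 519 nt before the stop codon.

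**Figure D1:**
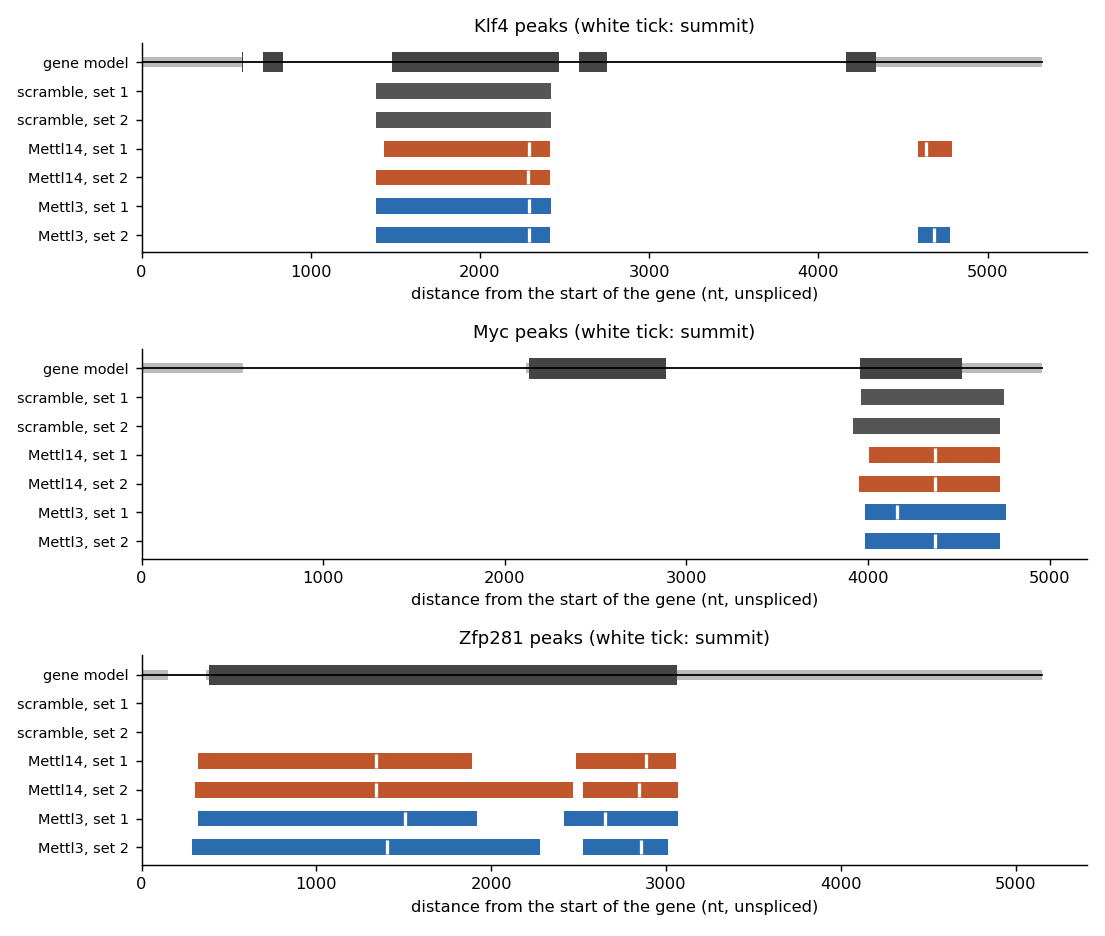
Peak extents of Klf4, Myc and Zfp281 in the 6 immunoprecipitated libraries, with distance from the start of the gene (nt, unspliced) on the x axis and the libraries as rows. Dark boxes are coding sequence, light boxes UTRs, coloured bars peaks and white ticks summits, which are not listed for shared peaks of the scramble libraries. The Klf4 exon 3 and Myc peaks recur in all 6 libraries, and Zfp281 has bars in the 4 knockdown libraries alone.

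The enrichment of the Klf4 exon 3 peak, the ratio of immunoprecipitate to its own control library, was 4.58 and 3.79 in the scramble libraries of set 1 and set 2. It was 10.9 and 7.90 in the Mettl14 knockdown libraries and 11.8 and 10.3 in the Mettl3 knockdown libraries. All 4 knockdown values lay above both scramble values. Klf4 was chosen with such results known, and the share of all peaks with the same order was not counted, so nothing is read from it. The scramble value was near the bottom of its list, with 1.85% of set 1 and 0.533% of set 2 scramble peaks below it. In the knockdown lists, 21% to 37.4% of peaks had a lower enrichment. The knockdown peaks held 214 and 242 tags (Mettl14) and 217 and 207 tags (Mettl3), more than 87.2% to 89.9% of peaks in their lists.

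In the authors' deposited tables the log2 changes of the Klf4 exon 3 peak, after the authors' scaling, were 1.11 and 0.70 for Mettl14 and 1.37 and 0.73 for Mettl3. Their means over the sets were 0.90 ± 0.29 and 1.05 ± 0.45 (SD, n = 2 sets). The scramble libraries themselves differed by -0.27 at this peak (log2, set 2 over set 1). The scaling multiplies all knockdown enrichments of a table by 1 constant, 0.906 and 0.777 for Mettl14 and 1.00 and 0.609 for Mettl3. Without it the changes were 1.25 and 1.06 for Mettl14 and 1.37 and 1.45 for Mettl3. Among shared peaks, 7.79% and 3.82% had a higher change than Klf4 in the Mettl14 tables and 10.1% and 1.59% in the Mettl3 tables. All of these Klf4 values were positive, and the constant lowered those of set 2 the most.

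A second Klf4 peak lay in the 3' UTR and was listed in 2 libraries, the Mettl14 knockdown of set 1 and the Mettl3 knockdown of set 2. In the first it covered chr4:55527676-55527880, with 51 tags, an enrichment of 5.50 and a false discovery rate (FDR) of 4.43% by the caller. In the second it covered chr4:55527687-55527880, with 32 tags, an enrichment of 7.22 and an FDR of 8.08%. Both calls had the same upstream edge along the mRNA, 55527880, and held the same GGACT, whose A lay 323 nt after the stop codon. The peak was missing from both scramble lists and from the other knockdown library of each set, so neither knockdown had it in both sets. The highest FDR listed in any table was 9.99%, so both calls lay in the range the lists retain and above the 0% to 0.75% of the exon 3 calls.

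In Myc a single peak in exon 3 spanned the stop codon in every library. The scramble calls were chr15:61989353-61990139 and chr15:61989310-61990117 on the plus strand, 787 and 808 nt wide. Coding sequence made up 69.0% to 72.3% of the knockdown calls and the 3' UTR nearly all of the rest. The summits of 3 knockdown libraries fell on position 61989759, 147 nt before the stop codon. The Mettl3 knockdown library of set 1 had its summit 211 nt farther upstream, 7 nt from the nearest GGACT. The Myc calls held 3 GGACT words each, 3.87 to 4.16 per kb in the knockdown calls, against 2.57 per kb over the whole mRNA. For Klf4 exon 3 the knockdown calls had 2.14 to 2.15 per kb, and the whole mRNA 1.65.

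The enrichment of the Myc peak was 5.93 and 5.36 in the scramble libraries of set 1 and set 2. It was 7.67 and 8.06 in the Mettl14 knockdown libraries and 8.68 and 8.67 in the Mettl3 knockdown libraries. Before scaling, all 4 knockdown values were above both scramble values, an order whose share over all peaks was not counted. After scaling they were 6.95, 6.26, 8.71 and 5.28 in the same order, and the Mettl3 value of set 2 lay below both scramble values. The knockdown peaks held 193 and 205 tags (Mettl14) and 194 and 151 tags (Mettl3).

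In the authors' deposited tables the log2 changes of the Myc peak were 0.23 and 0.22 for Mettl14 and 0.55 and -0.02 for Mettl3, with means of 0.23 ± 0.00 and 0.27 ± 0.41 (SD, n = 2 sets). Without the scaling constants they were 0.37, 0.59, 0.55 and 0.69, so the single negative value turned positive. The scramble libraries differed by -0.15 (log2, set 2 over set 1), which is less than each unscaled change and close to the scaled Mettl14 changes. More shared peaks lay above Myc than above Klf4. In set 1, 30.7% and 30.8% of shared peaks had a higher change (Mettl14 and Mettl3), and in set 2, 9.02% and 7.43%.

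**Figure D2:**
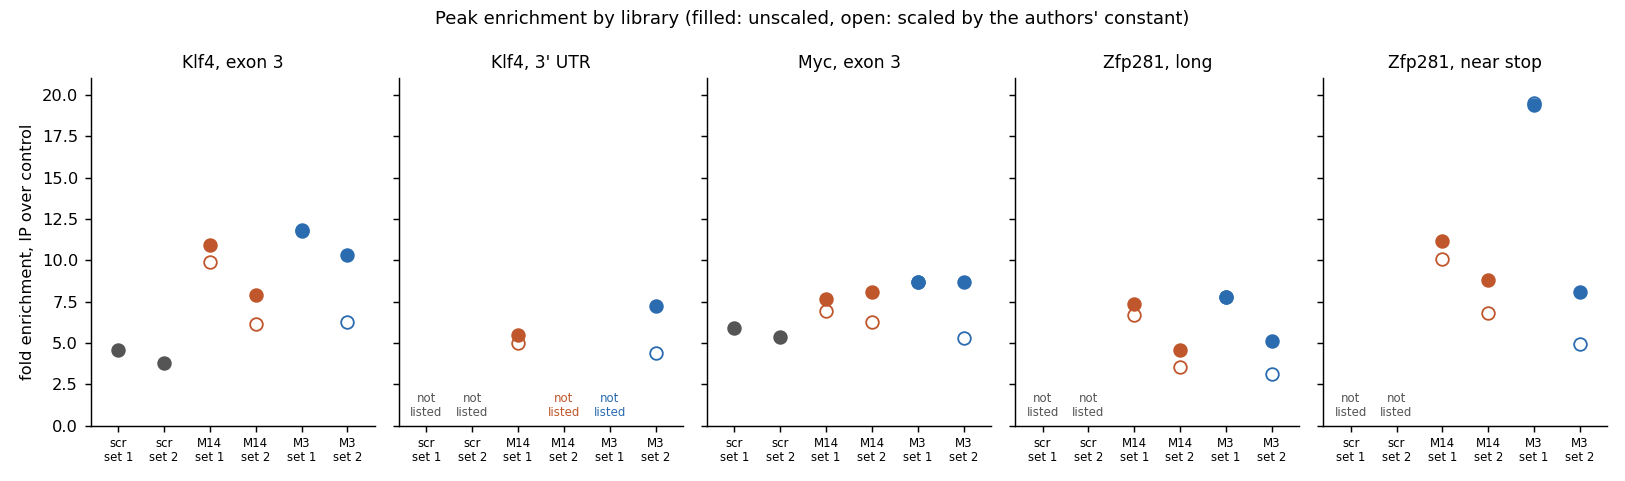
Fold enrichment (immunoprecipitate over control, y axis) of the 5 peaks in the 6 libraries (x axis; scr, scramble; M14 and M3, Mettl14 and Mettl3 knockdown). Filled points are unscaled, open points carry the authors' constant, and each point is 1 library. The Klf4 exon 3 points are 3.79 and 4.58 in scramble and at least 6.14 in the knockdown libraries, while the open Myc point of Mettl3 set 2, 5.28, lies below both scramble points.

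Zfp281 had no peak on its own strand in either scramble library and 2 peaks in each of the 4 knockdown libraries. The long peak covered the start codon and most of the coding sequence, which is wholly in exon 2. Of each long call, 42 to 81 nt lay in the intron upstream of exon 2. It ran over chr1:136625225-136626788 and chr1:136625206-136627366 with Mettl14 knockdown and over chr1:136625226-136626817 and chr1:136625187-136627182 with Mettl3 knockdown, on the plus strand. The starts differed by at most 39 nt and the ends by 578 nt, the set 2 calls being longer (2161 and 1996 nt against 1564 and 1592 nt in set 1). The summits lay within 167 nt of each other, 1558 to 1725 nt before the stop codon.

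The long Zfp281 peak held 368 and 554 tags with Mettl14 knockdown and 370 and 471 tags with Mettl3 knockdown. These counts were above those of 96.3% to 98.5% of peaks in their lists. Its enrichment was low, at 7.37 and 4.55 (Mettl14) and 7.77 and 5.12 (Mettl3), with 2.54% to 11.2% of listed peaks below it. Tags per kb were even, from 232 to 256, so the longer calls of set 2 held more tags at a like density. The FDR was 0% in 2 libraries, 0.21% in Mettl3 set 1 and 1.41% in Mettl14 set 2.

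The second Zfp281 peak ended close to the stop codon, at most 1 nt into the 3' UTR, after a gap of 57 to 597 nt from the long peak. It held 105 and 108 tags with Mettl14 knockdown and 116 and 90 tags with Mettl3 knockdown, over 483 to 651 nt. Its enrichment was 11.2 and 8.81 (Mettl14) and 19.4 and 8.11 (Mettl3), which was 1.51 to 2.5 times that of the long peak in the same library. The Mettl3 library of set 1 stood above the other 3, and its summit lay 412 nt before the stop codon against 176 to 218 nt in the others. In each library the long call held 2 GGACT words and the call near the stop codon 1. That was 0.953 to 1.31 per kb in the long calls and 1.54 to 2.07 per kb near the stop codon. The Zfp281 mRNA as a whole had 0.81 per kb, the lowest of the 3 genes.

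For Zfp281 no fold against scramble can be given, since the tables list no scramble value there. Of the scramble peaks, 142 in set 1 and 76 in set 2 had an enrichment no higher than 4.55, the lowest of the long Zfp281 peak, and 393 and 422 were at least 1564 nt wide. Genes with new peaks alone, listed in the knockdown library and not in scramble, in all 4 tables numbered 30 of the 3663 genes listed in all 4 (0.819%). Zfp281 is one of them by the rule that chose it.

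By gene, a call of higher means that each listed peak was new or had a positive log2 change. Klf4 and Zfp281 were higher in all 4 tables and Myc in 3, all but Mettl3 set 2. Among all listed genes, 27.4% and 19.7% were higher with Mettl14 knockdown in set 1 and set 2, and 34.7% and 16.0% with Mettl3 knockdown. Higher in every table were 84 of 3663 genes (2.29%). Of single shared peaks, 45.4% and 15.2% had a positive log2 change after Mettl14 knockdown and 64.8% and 7.04% after that of Mettl3. The Klf4 and Myc exon 3 peaks make 8 such rows, 7 of them positive. The members were chosen on these contrasts, so nothing is read from the comparison with these shares.

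**Figure D3:**
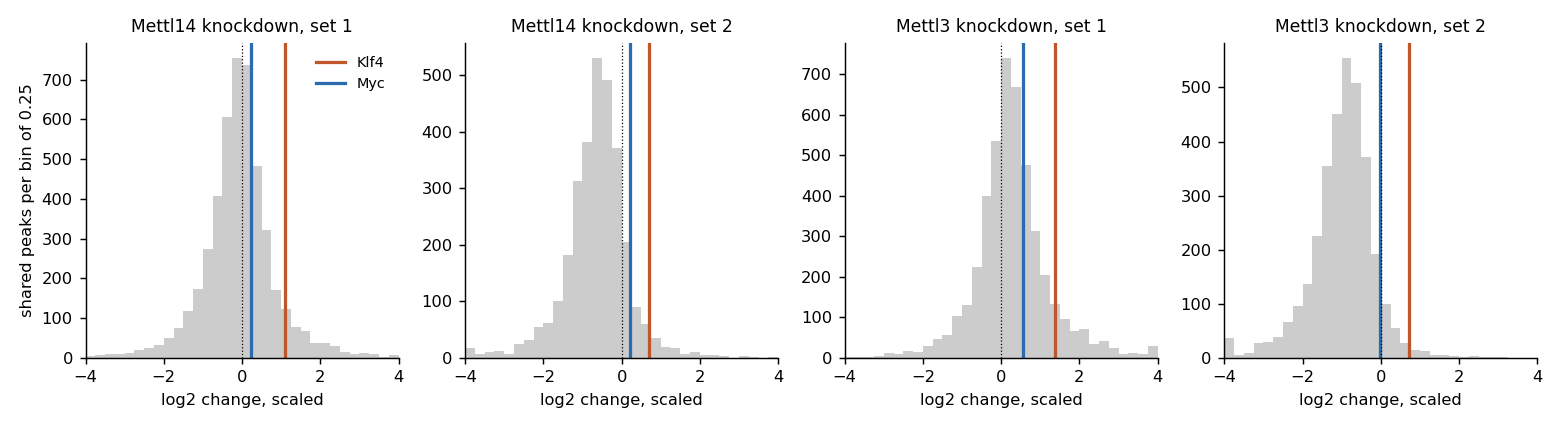
Histograms of the log2 change (x axis, knockdown over scramble after the authors' scaling) of all shared peaks in the 4 tables, with the number of peaks per bin of 0.25 on the y axis and values beyond -4 or 4 put in the end bins. Vertical lines mark the exon 3 peaks of Klf4 and Myc, and the dotted line is 0. The Klf4 line lies between 0.70 and 1.37 while the median of all peaks moves from 0.22 in Mettl3 set 1 to -0.91 in Mettl3 set 2.

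The other genes were taken from fixed lists. Of 42 pluripotency genes, 22 had a listed peak and 12 had one in both scramble libraries. With Mettl14 knockdown 6 of the 18 listed in both tables were higher in both sets and 1 was lower, where all genes had 7.55% higher and 41.8% lower. With Mettl3 knockdown 3 of 17 were higher and 2 lower, where all genes had 5.81% and 33.5%. The 6 were Klf4, Myc and Zfp281 themselves with Rest, Rif1 and Thap11, and the 3 were Klf4, Zfp281 and Rif1. The median log2 change over genes with a shared peak was 0.23 and -0.20 with Mettl14 knockdown (15 and 13 genes), where all genes had -0.07 and -0.61. It was 0.42 and -0.50 with Mettl3 knockdown (16 and 12 genes), where all genes had 0.22 and -0.90. The list is not independent evidence, since it was drawn up with earlier results known. Of the 83 genes of this list and the 3 below, 50 had a listed peak. Among them 8 (Mettl14) and 4 (Mettl3) were higher in both sets, and without scaling 16 and 13. The share of all genes higher in both sets without scaling was not counted, so the unscaled counts have no background.

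Genes named with values from each list were picked by high scramble enrichment, save where said otherwise. Such a choice favours lower or lost peaks in the knockdowns, so nothing is read from their direction. Within the pluripotency list, Zfx, a zinc finger factor of self-renewal, was lower in all 4 tables. In the authors' deposited tables its X chromosome peak had log2 changes of -1.51 and -0.20 (Mettl14) and -0.68 and -1.01 (Mettl3). Without scaling the Mettl14 value of set 2 was 0.17, so its direction there rests on the constant. Smad1, an effector of BMP signals, had a peak on chromosome 8 whose log2 changes in the authors' deposited tables were -2.30 and -1.78 for Mettl14 and -1.60 for Mettl3 in set 1. It was lost in Mettl3 set 2. Another Smad1 peak was shared in set 2, with log2 changes of -0.60 (Mettl14) and -1.16 (Mettl3). A further Smad1 peak was new in Mettl14 set 2, at an enrichment of 9.14. Nr5a2, an orphan nuclear receptor, had opposite signs in the sets at its shared peak, in Mettl14 set 1 chr1:136845139-136845797. The log2 changes there were 0.57 and -1.16 (Mettl14) and 0.29 and -1.68 (Mettl3) in the authors' deposited tables. A further Nr5a2 peak, in Mettl14 set 1 chr1:136940467-136941123, was new with Mettl14 knockdown in both sets, at enrichments of 8.91 and 7.13. With Mettl3 knockdown it was new in set 2 alone, at 8.67. Tbx3, Kdm3a, Trim71 and Fgf4 had the same call, higher or lower in every peak, in both sets of neither knockdown. The highest Fgf4 enrichment in set 2 was 7.13 in scramble and, before scaling, 8.38 and 7.69 in the knockdown libraries. Whether its lower calls there rest on the constant was not checked peak by peak. Rif1, a replication timing factor singled out after its values were seen, had new peaks alone in all 4 tables like Zfp281, with enrichments of 6.49, 4.98, 4.96 and 4.20.

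The Klf and Sp family shares the zinc finger DNA-binding domain of Klf4. Of its 26 genes, 21 had a listed peak and 12 had one in both scramble libraries. With Mettl14 knockdown 2 of 16 were higher in both sets (Klf4 and Sp8) and 5 lower, and with Mettl3 knockdown 1 of 14 was higher (Klf4) and 4 lower. Over all genes the shares were 7.55% and 41.8% (Mettl14) and 5.81% and 33.5% (Mettl3). The other family members named here were again picked by high scramble enrichment, which favours falls, so they are no contrast to Klf4. Klf7, a factor of neural development, was lower in all 4 tables. In the authors' deposited tables its peak at chr1:64078759-64079398 had log2 changes of -0.48 and -0.50 (Mettl14) and -0.98 and -0.48 (Mettl3), and a further peak was lost in all 4. Without scaling the Mettl3 value of set 2 was 0.24. Klf3 had scramble enrichments of 18.4 and 20.9 and Sp4 of 17.1 and 15.3, and both had a listed knockdown peak in the Mettl14 library of set 1 alone. Sp5 had scramble enrichments of 34.2 and 15.9 and 12.2 to 20.1 in the knockdown libraries, at its highest peak. Sp6 had 44 and 23.8 in scramble and 14.1 to 32.7 in the knockdown libraries. Klf11, Klf13 and Klf15 had no call that was the same in all 4 tables. The median log2 change of the family was -0.16 and -0.31 after Mettl14 knockdown and 0.09 and -0.48 after that of Mettl3, where all genes had -0.07, -0.61, 0.22 and -0.90 in the same order.

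Of the 13 genes of the Myc, Max and Mlx network, 5 had a listed peak. Max, the obligate partner of Myc, had one in set 1 alone. Mga, a Max-binding repressor, had peaks in all 6 libraries, and its 2 shared peaks were positive in set 1 and negative in set 2 with either knockdown. Further Mga scramble peaks of set 1, at enrichments of 9.76 and 10, were lost with either knockdown, so Mga had peaks of both kinds there. Another Mga peak was new in Mettl14 set 2, at 7.33. Without scaling the shared Mga peaks of set 2 had values of 0.04 and -0.14 (Mettl14) and -0.12 and -0.07 (Mettl3), so the direction of 1 rests on the constant. Mlxip, a glucose-sensing partner of Mlx, had log2 changes of -0.47 and -0.85 for Mettl14 in the authors' deposited tables. Its Mettl3 calls differed between the sets. Mnt, a repressor that competes with Myc for Max, had a new peak alone in all 4 tables and was singled out after its values were seen. Its peak, chr11:74836364-74836990 in Mettl14 set 1, held 146 to 185 tags at enrichments of 4.88 to 6.71.

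Of the 7 genes listed as relatives of Zfp281, 5 had a peak in all 6 libraries. None of the 5 was higher in both sets of either knockdown, where 7.55% (Mettl14) and 5.81% (Mettl3) of all genes were. Among 5 genes, none is close to these shares. With either knockdown 1 was lower in both sets, where 41.8% (Mettl14) and 33.5% (Mettl3) of all genes were lower. That gene was Zfp148, the closest relative of Zfp281, which has a like zinc finger array. Its peak on chromosome 16 had an enrichment of 19.0 and 11.8 in the scramble libraries. In the authors' deposited tables its log2 changes were -0.15 and -0.28 (Mettl14) and -0.48 and -0.40 (Mettl3). Without scaling those of set 2 were 0.08 and 0.32, and those of set 1 were -0.00 (Mettl14) and -0.49 (Mettl3). The lower calls of Zfp148 in set 2 thus rest on the scaling, and so does nearly all of the fall in Mettl14 set 1. Zbtb7a, Zbtb7b, Patz1 and Zfp740 had calls that differed between tables.

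**Figure D4:**
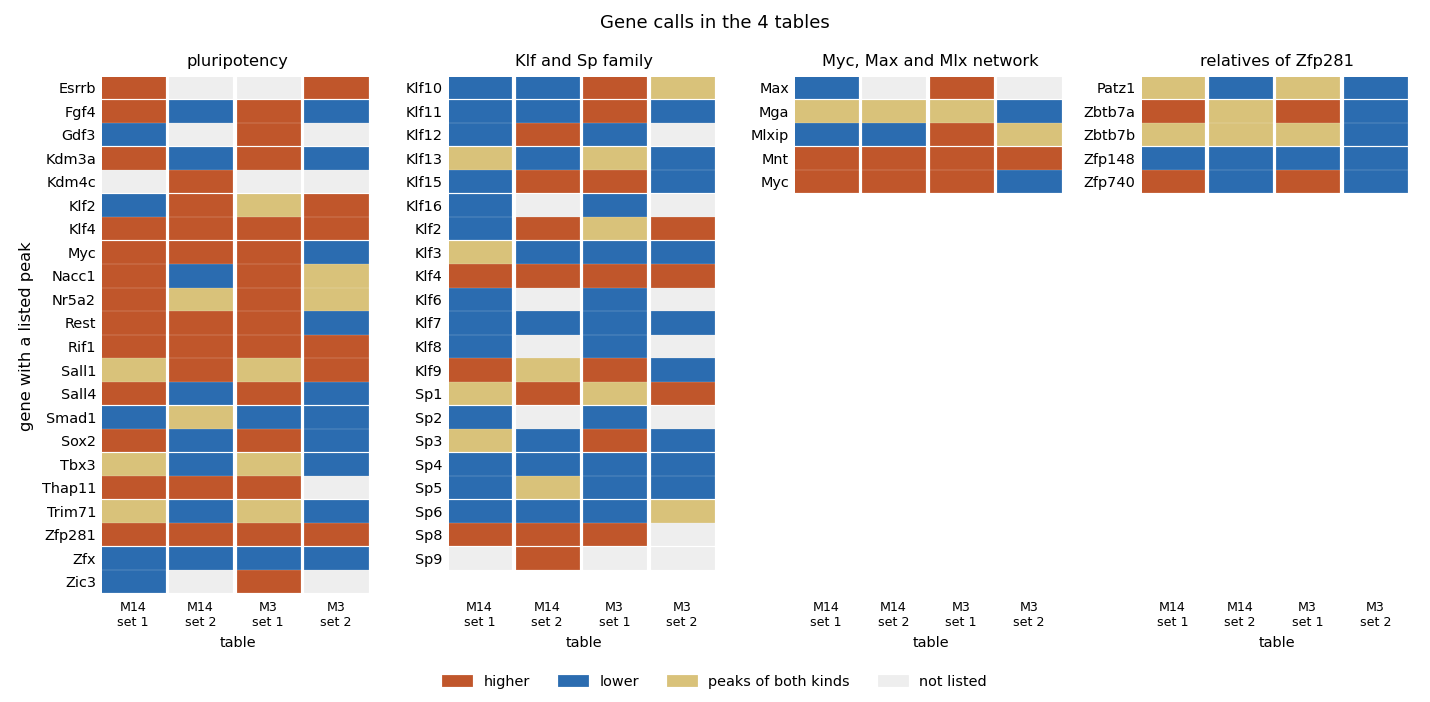
Calls of the genes of the 4 lists that had a listed peak (rows) in the 4 tables (columns). Each cell is higher, lower, peaks of both kinds or not listed, by the authors' scaled values. Klf4, Zfp281, Rif1 and Mnt are higher in all 4 columns, and Klf7, Sp4, Zfp148 and Zfx are lower in all 4.

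The likeness of other genes was measured over the 6 libraries as the root mean squared difference of log2(highest enrichment + 1), with 0 for a gene not listed and each gene's mean taken off. Of the other named genes, Brwd1, AL929042.1 and Cnnm2 were nearest to Klf4, at 0.17, 0.19 and 0.22. The Brwd1 enrichments were 7.64 and 7.26 in scramble, 14.5 and 11 after Mettl14 knockdown and 14.9 and 13.5 after that of Mettl3. Nom1, Ing1 and Tanc1 were nearest to Myc, at 0.07, 0.08 and 0.08. March8, Gm13051 and Fgf5 were nearest to Zfp281, at 0.13, 0.31 and 0.34, and like it none had a scramble peak. The measure picks such genes, since a gene not listed in a library counts as 0 there. Fgf5, a fibroblast growth factor that marks primed cells, had enrichments of 9.29, 8.66, 9.97 and 9.12 in the 4 knockdown libraries.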

How the data were processed

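Per the labels' protocols, poly(A) RNA of J1 cells was fragmented and immunoprecipitated with an anti-m6A antibody. No column gives values of the 6 no-antibody libraries, which were not analysed on their own. The submitters' processing notes name mm10, TopHat2 2.0.6, Bowtie 0.12.7, Picard 1.74, SAMtools 0.1.18, CASAVA 1.8.2 and cutadapt 1.1. Per the file headers, each library's MACS peaks carry a strand and were called against its own control library (caller version not stated), and the deposited tag count, fold enrichment ratio, scaled ratio, signed fold score, minus 10 log10 p score and FDR percent are the authors' values.

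Signed folds were converted to log2 changes and solved for the scramble enrichment. For 2726 scramble peaks also listed outright the solved value was equal within 0.01. The tables list no tags for scramble peaks shared with both knockdowns. Peaks were followed by an overlap of at least 1 nt on the same strand, and summits taken from the listed offsets. No model was fitted, because each table sets 1 library against 1 library; exact permutation of 4 against 2 libraries could not give p below 0.0667, nor 2 against 2 below 0.333. No source ties the sets to the labels' replicate numbers, nor says that the libraries came from separate cultures, so the spread between sets may be technical.

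The members and lists were chosen with earlier results of these data known. Named list genes had a peak in both scramble libraries, at most 8 a list by scramble enrichment, a choice that favours falls in the knockdowns. The 3 nearest genes were named for each member. Each gene's longest coding transcript in GENCODE M21 was used; for Myc, the longest that begins at ATG. Calculations used Python 3.11.15 and pandas 2.3.3 and were tested on simulated data.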

Additional observations from a re-analysis of the deposited data

How the results depend on the processing

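Of 51 recomputed values, 30 moved by less than the SD between sets, for counts by at most 1.5 times, or for shares within the 95% Wilson interval. The counts of 10 new and 8 shared peaks were 7 and 8 at an FDR of at most 1%, and 10 and 8 with at least 20 tags or with an overlap of 0.5 of the shorter peak. With the median of each table set to 0, the mean log2 change of Klf4 exon 3 with Mettl14 knockdown was 1.23 in place of 0.90. For Myc with Mettl14 knockdown the mean of 0.23 was 0.48 without scaling and 0.55 with the median at 0. For Myc with Mettl3 knockdown it was 0.27, 0.62 without scaling and 0.61 with the median at 0, and -0.02 to 0.55 with 1 set left out, so it turned negative without set 1. Leaving out 1 set gave 0.70 to 1.11 (Mettl14) and 0.73 to 1.37 (Mettl3) for Klf4, and 0.22 to 0.23 for Myc with Mettl14 knockdown. Klf4 was higher in 4 tables under every scaling and at an FDR of at most 1%. Myc was higher in 3 tables, also at that FDR, and in 4 without scaling or with the median at 0. Zfp281 was higher in 4 tables at that FDR. Its peaks were all new and count as higher under any scaling, so the scalings could not change its calls. Of the 83 genes of the 4 lists, 50 had a listed peak. Among them 8 were higher and 8 lower in both sets for Mettl14, and 4 and 7 for Mettl3. Of all genes listed in both sets, 7.55% were higher and 41.8% lower for Mettl14, and 5.81% and 33.5% for Mettl3. How many of the 50 were listed in both sets was not counted, so the counts have no share of their own. Without scaling 16 and 13 of the list genes were higher and 6 and 4 lower. With the median at 0, 16 and 13 were higher and 5 and 6 lower. The shares of all genes higher or lower in both sets were not counted under these settings. Taking 1 set alone gave 15 to 18 higher and 20 lower with Mettl14 knockdown, and 8 to 25 higher and 13 to 25 lower with Mettl3 knockdown, since a single set asks for 1 call and not 2. With scaling, 27.4% and 19.7% of all genes (Mettl14, set 1 and set 2) and 34.7% and 16.0% (Mettl3) were higher in a single table. The share lower in a single table was not counted, so the lower counts have no background. Without scaling, the share of all genes called higher in a single table was 32.1% and 28.1% (Mettl14, set 1 and set 2) and 34.5% and 30.7% (Mettl3). Apart from that, the cause was not tested. Tags per kb in place of enrichment were not run, since scramble tags of the shared peaks are not listed. No paired analysis was possible because the table columns carry no replicate number of the labels and no result here comes from a test; the log2 changes are already taken between libraries of the same set.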

Other observations

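On the strand opposite to Zfp281, with no gene name in the tables, both scramble libraries had a peak inside the Zfp281 coding region although neither had one on the Zfp281 strand. In set 1 it covered chr1:136626218-136626397 with 11 tags and an enrichment of 139, and it was lost in both knockdowns. In set 2 it covered chr1:136625867-136626525 at an enrichment of 25.5 and was shared, at 18.1 with 28 tags (Mettl14) and 14.5 with 34 tags (Mettl3). All of these calls overlapped the long Zfp281 peak of the knockdown libraries, which held 368 to 554 tags on the other strand. The FDR of the opposite-strand calls was 2.15% to 8.15%. No peak was listed on the strand opposite to Klf4 or Myc.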
